A study of Mus musculus with 27 samples.

Results

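Chromatin-associated polyadenylated RNA of mouse embryonic stem cells treated with siRNA against Ptbp1 and Ptbp2 together was compared with that of cells treated with siRNA against Ptbp1 alone. The comparison used 6 of the 27 libraries of the series. They were the 3 chromatin libraries labelled siPTBP1+siPTBP2, called the double libraries here, and the 3 chromatin libraries labelled siPTBP1, paired by replicate number. Genes with at least 1 TPM (a level scaled for transcript length and to a fixed library total) in at least 3 of the 6 libraries were kept, which left 18877 of 53379 genes. All cells were of the E14 mouse embryonic stem cell line, grown on gelatin with LIF, which holds back differentiation. Both groups therefore had Ptbp1 siRNA, and the added Ptbp2 siRNA is what separates them on the labels. The siRNA amount on the labels is 20 uM for every group. That value does not tell whether it is the amount of each siRNA or the total. Whether the groups also differ in the amount of Ptbp1 siRNA or of all siRNA is thus unknown. Cells were reverse-transfected, transfected a second time at 24 h and harvested at 48 h, and the fractions were chromatin (CH), nucleoplasm (NP) and cytoplasm (CY). The matching libraries of siRNA against eGFP, called siGFP, are given as the background; they are the controls of the whole series and no part of the comparison. The series describes 3 biological replicates of each condition, but the labels do not say what a replicate number stands for, so p-values reflect only how far these libraries spread.

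Polypyrimidine tract binding proteins bind CU-rich RNA and hold back the splicing of many exons, and Ptbp1 also keeps some introns in the transcript. Ptbp1 is made in most dividing cells, whereas its paralog Ptbp2 is the form of developing neurons and is itself kept low by Ptbp1, which promotes skipping of a Ptbp2 exon whose loss exposes the RNA to decay. RNA on chromatin includes transcripts still being made or spliced and transcripts held at the gene.

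The labelled cell type could be checked on its markers. The 10 embryonic stem cell markers all passed the filter, none was called in the comparison, and their summed level was 1670 to 2786 TPM in the siPTBP1 libraries, 1623 to 2273 in the double libraries and 2288 to 2763 in siGFP. In such bulk samples, fewer cells of a type and less RNA per cell cannot be told apart. Pou5f1, the Oct4 gene of pluripotent cells, stood at 658.81, 210.7 and 373.14 TPM in siPTBP1 replicates 1, 2 and 3 and at 632.65, 197.45 and 369.71 in the double libraries. Between 17613 and 19509 genes reached 1 TPM in a library of the comparison. The mitochondrial genome gave 0.511% to 1.62% of the TPM, with the highest share in siPTBP1 replicate 1.

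Most of the genes called in the comparison were short noncoding genes, and 3 of the 6 called genes annotated as miRNA genes have a registered miRNA name. Their hairpins and mature forms are printed because the table's values for them are values of the hairpin gene in polyadenylated RNA; mature miRNAs were not measured. In each hairpin the capitals mark the mature arms, and in each mature sequence they mark the seed, bases 2 to 8 from the 5′ end, which pairs with target RNAs. Sequences are from RefSeq on GRCm38.p6, the assembly of mm10, read 5′ to 3′. Of 9 named miRNA genes, 8 were matched by symbol.
Mir6387 hairpin, chr12:15800994-15801101, minus strand: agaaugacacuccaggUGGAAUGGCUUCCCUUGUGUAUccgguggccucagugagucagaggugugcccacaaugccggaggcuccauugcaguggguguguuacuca
mmu-miR-6387: uGGAAUGGcuucccuuguguau
Mir7647 hairpin, chr5:123522637-123522695, minus strand: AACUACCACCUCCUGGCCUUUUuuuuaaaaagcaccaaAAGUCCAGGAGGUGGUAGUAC
mmu-miR-7647-5p: aACUACCAccuccuggccuuuu
mmu-miR-7647-3p: aAGUCCAGgaggugguaguac
Mir3109 hairpin, chr9:69456944-69457031, plus strand: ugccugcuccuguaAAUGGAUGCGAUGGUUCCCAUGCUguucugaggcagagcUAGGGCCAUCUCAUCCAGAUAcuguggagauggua
mmu-miR-3109-5p: aAUGGAUGcgaugguucccaugcu
mmu-miR-3109-3p: uAGGGCCAucucauccagaua
The 15 mature sequences of the 8 matched genes carry 15 different seeds, so none of them share a seed.

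Ptbp2 RNA on chromatin was not called lower where Ptbp2 siRNA had been added. Ptbp2 (ENSMUSG00000028134, chr3:119718742-119784466, minus strand, the target of the added siRNA) stood at 23.37, 76.76 and 72.31 TPM in siPTBP1 replicates 1, 2 and 3 and at 23.62, 73.84 and 67.34 in the double libraries. The siGFP libraries held 22.83, 91.7 and 87.83 TPM. Replicate 1 was low in each treatment, and the groups overlapped throughout. The difference between double and siPTBP1 libraries was -0.05 on the log2(TPM + 1) scale (SE 0.152, 95% interval -0.36 to 0.27, limma adjusted p = 0.993), a ratio of 96.8% once 1 is added to each TPM. The sign of that value depends on a single library, and was 0.009 without double replicate 3. The chromatin level of the target thus does not by itself check the label of the double libraries.

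In CY the same siRNA left less Ptbp2 RNA. Ptbp2 stood at 3.51, 18.93 and 19.22 TPM in the siPTBP1 CY libraries and at 1.45, 7.29 and 7.55 in the double CY libraries, lower in every pair. It fell by 1.13 on the log2(TPM + 1) scale (95% interval -1.44 to -0.81, limma adjusted p = 0.00463), a ratio of 45.7% once 1 is added to each TPM. Mean Ptbp2 TPM was 13.89 in the siPTBP1 CY libraries and 5.43 in the double CY libraries. Among all 18877 genes Ptbp2 was the only gene called in CY, or 0.0053% of them, with 776 genes at an unadjusted p under 0.05. In NP the levels were 5.66, 16.9 and 17.33 TPM against 3.56, 12.49 and 11.3, a difference of -0.51 (unadjusted p = 0.00292, limma adjusted p = 1). The log2 difference on chromatin minus that in CY was 1.08, the change being smaller on chromatin (95% interval 0.64 to 1.53), with an unadjusted p of 5.3e-05 but a limma adjusted p of 0.143, so the difference between the fractions was not called. Against NP the difference of the effects was 0.46 (limma adjusted p = 0.9998).

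**Figure D1:**
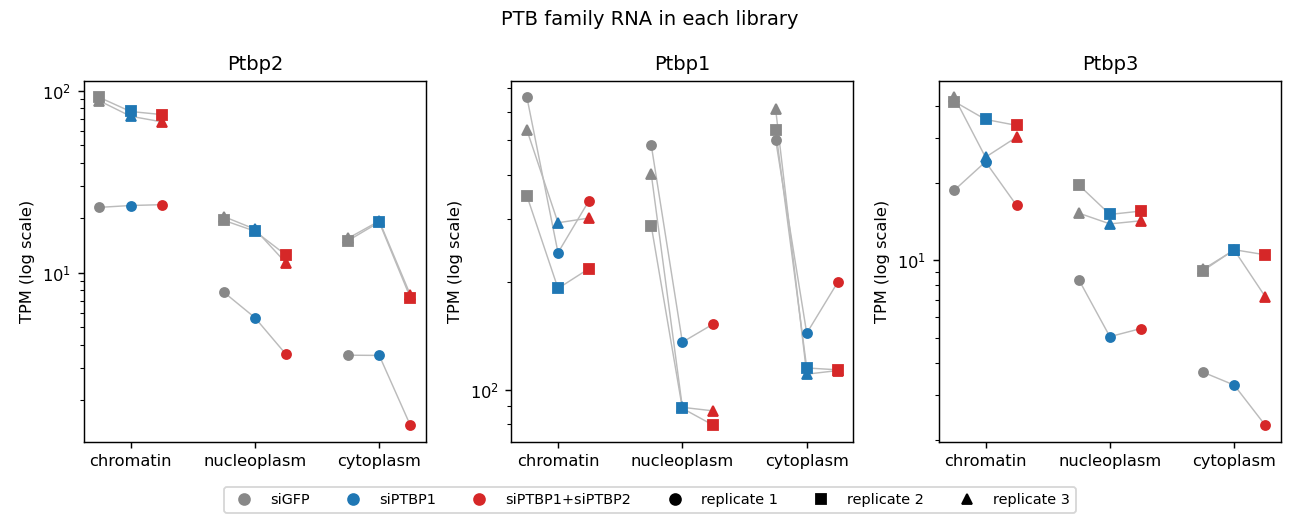
TPM (log scale) of Ptbp2, Ptbp1 and Ptbp3 in every library, by fraction; colour gives the treatment, the marker shape the replicate number and lines join libraries of one number. Ptbp2 stayed at 23.62, 73.84 and 67.34 TPM on chromatin with both siRNAs but lay at 1.45, 7.29 and 7.55 TPM in cytoplasm, below the siPTBP1 libraries.

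The other family members did not differ beyond the spread between libraries. Ptbp1, the target shared by both groups, stood at 241.93, 192.1 and 293.52 TPM in siPTBP1 chromatin and at 338.86, 218.43 and 302.65 in the double libraries, higher in all 3 pairs. The difference was 0.24 (95% interval -0.17 to 0.64, limma adjusted p = 0.993). Against siGFP, with 659.34, 349.1 and 533.95 TPM, Ptbp1 was lower in both, with log2 differences of -1.05 after siPTBP1 (limma adjusted p = 0.00437) and -0.82 in the double libraries (limma adjusted p = 0.0272); both comparisons use the same 3 siGFP libraries. Ptbp3, the other paralog and a target of neither siRNA, stood at 24.22, 35.41 and 25.24 TPM in siPTBP1 and at 16.38, 33.58 and 30.22 in the double libraries. Its difference was -0.12 (95% interval -0.53 to 0.29), and it turned to 0.09 without replicate 1 and to 0.19 without siPTBP1 replicate 1.

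Across the transcriptome little separated the groups. At an adjusted p under 0.05, 16 genes were called by limma, 0.0848% of those tested, 11 of them higher in the double libraries (0.0583%) and 5 lower (0.0265%). At an unadjusted p under 0.05 there were 874. Without any test, all 3 double libraries lay above all 3 siPTBP1 libraries for 369 genes (1.95%) and below them for 324 (1.72%). The same fit called 493 genes (2.61%) between siPTBP1 and siGFP on chromatin, of which 389 were higher and 104 lower. Between the double libraries and siGFP it called 432 (2.29%), 359 higher and 73 lower. Both counts rest on the same siGFP libraries. The 16 calls were made with the spread estimated from all 27 libraries, with 16 residual degrees of freedom. Fitted on the 9 chromatin libraries alone, with 4, limma called 0 genes (925 at an unadjusted p under 0.05). The smallest limma adjusted p was then 0.0629, for Mir6387. In the 6 compared libraries alone, with 2 residual degrees of freedom, 5 genes were called, 2 of them shared. What changed these counts was not tested. Without siPTBP1 replicate 2 the count was 63. A filter of 1 TPM in all 6 libraries admits only 1 of the 16 genes, Gm15842, so it could not have kept the other calls; under it limma called 0 (514 unadjusted).

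The intervals give the size of difference that the data could resolve. Of 10525 genes averaging 10 TPM or more, 9449 (89.8%) had a 95% interval within 2-fold of no difference and 6169 (58.6%) within 1.5-fold. The median SE was 0.198. Point estimates passed 2-fold for 426 genes, of which 366 have a longest transcript under 200 nt. Genes of that length had a wide spread, with a median difference of 0.16, a 10th percentile of -1.06, a 90th of 1.48 and a median SE of 0.797. Genes of 200 nt or more had a median of -0.02, and protein-coding genes -0.03.

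**Figure D2:**
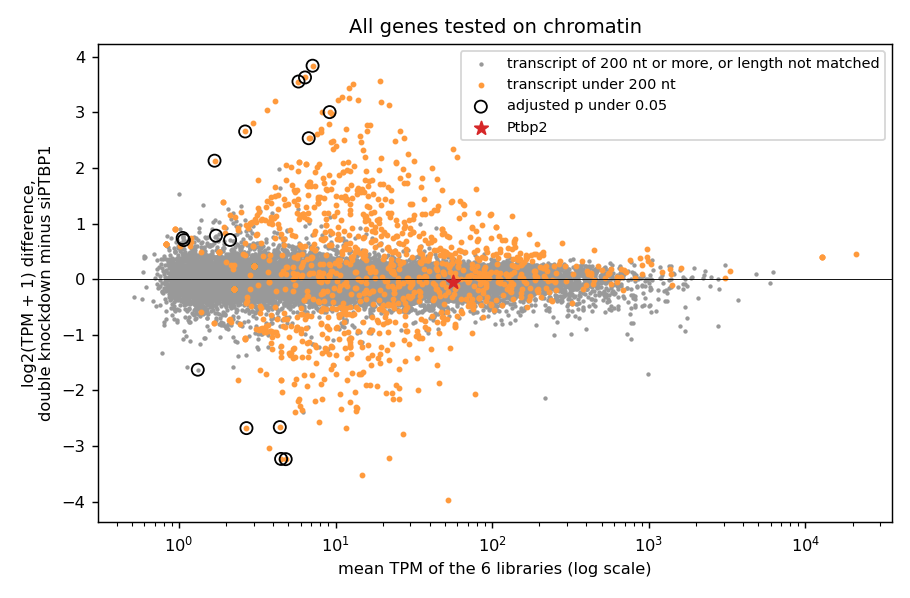
Log2(TPM + 1) difference of the double against the siPTBP1 libraries for all 18877 genes by mean TPM (log scale); orange points have a transcript under 200 nt, black circles are called and the star is Ptbp2. The 16 circled genes lie at low levels and most are short.

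The differences of the 3 pairs of libraries were hardly correlated across genes. Across the 10525 genes at 10 TPM or more, the differences of pairs 1 and 2 had a correlation of 0.0257, pairs 1 and 3 of 0.0455 and pairs 2 and 3 of 0.0288. These are across genes, which are not independent replicates, and the pairs share no library. For siPTBP1 minus siGFP on chromatin the same correlations were 0.13, 0.12 and 0.194, so they were low there too. Pair 1 was the widest, with differences of SD 0.665 (log2) and 685 genes beyond 2-fold, against 0.472 and 264 genes in pair 2 and 0.505 and 286 genes in pair 3. In all 3 pairs the value was higher for 2519 genes of the 18877 and lower for 2755.

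**Figure D3:**
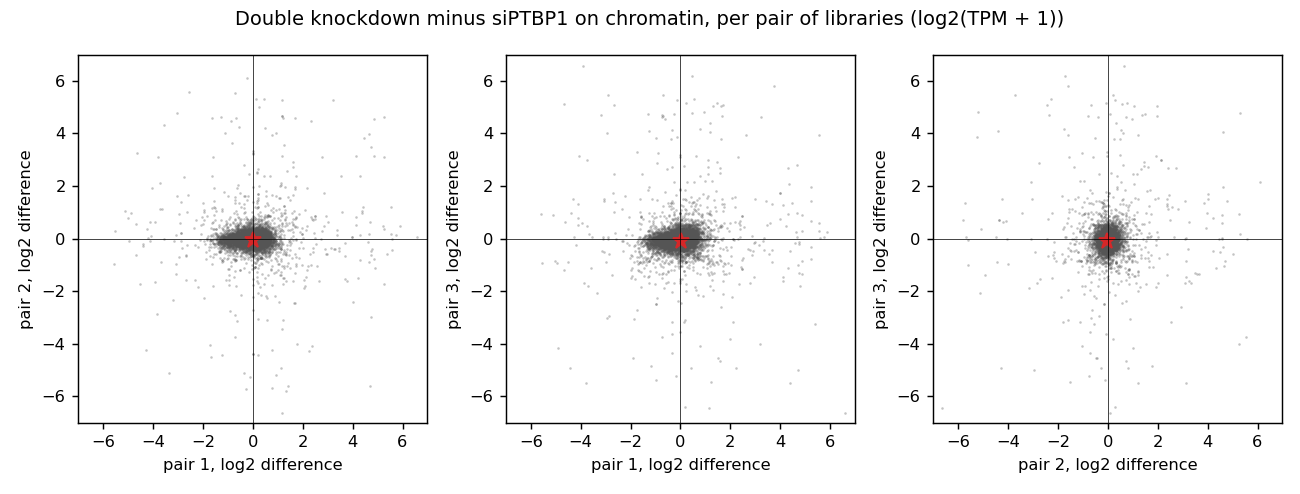
Log2(TPM + 1) difference of double minus siPTBP1 in one pair against another, for 10525 genes averaging 10 TPM or more; each point is a gene and the star is Ptbp2. The points form no diagonal, and pair 1 is the widest, at SD 0.665.

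Of the 16 called genes, 11 have a longest transcript under 200 nt, out of 1248 such genes among the 18877 tested. A single exon was annotated for 13 of the 16, and the share of such genes among all tested was not counted. Only Zfp935 is protein-coding, whereas 13641 of the 18877 genes tested are. Of the 16, 5 were listed at 0 in every siPTBP1 library and 4 in every double library, so no fold is given for those 9. Of the 16, 12 had 1 TPM or more in libraries of 1 group only and so passed the filter through the group where they were high. These 12 are the 9 genes at 0 throughout a group, Zfp935, 4930448I06Rik and Gm43596. Their difference was fixed by entry, and neither their number nor their p-values are support. For the 9 genes at 0 throughout a group the limma adjusted p ran from 3.21e-05 to 0.043. The fit also takes part of its spread from fractions where such genes are mostly at 0. On simulated data with values under 0 set to 0 in all libraries it made extra false calls. That simulation gave each group its own mean but each gene the same spread in every fraction. Whether the spread taken from other fractions or the values at 0 bear on the called genes was therefore not tested. In CY and NP, 7 of the 16 were listed at 0 in all 18 libraries and 9 in at least 16. The share of genes so listed among all those tested was not counted. Of the 16 names, 12 are predicted or Riken names outside the naming rule; they are described because the count is small, and were chosen after their values were seen.

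The genes listed at 0 in every siPTBP1 library were short and low. Gm22051 (a miRNA gene, chr2:10506555-10506681) stood at 0, 0 and 0 TPM in siPTBP1, at 5.38, 5.29 and 5.22 in the double libraries and at 4.47, 4.49 and 9.6 in siGFP. Gm25411 (snRNA, chr1:66436082-66436232) stood at 0 in siPTBP1, at 3.39, 3.41 and 3.33 in the double libraries and at 2.85, 0 and 3.04 in siGFP. Gm24277 (snRNA, chr4:57762607-57762710) stood at 0 in siPTBP1 and at 8.14, 22.36 and 7.81 in the double libraries, with 6.87, 0 and 7.02 in siGFP. In these 3 genes some or all siGFP libraries were also above 0, so siPTBP1 was the treatment at 0. The same held for Gm27688 (miscellaneous RNA, chr4:116725899-116725989), at 0 in siPTBP1, 18.64, 7.82 and 8.34 in the double libraries and 23.88, 20.73 and 7.7 in siGFP. Mir7647, the hairpin printed above, stood at 0 in siPTBP1, at 7.51, 15.46 and 19.85 in the double libraries and at 0, 20.48 and 13.54 in siGFP. In NP it went the other way, at 4.98, 7.41 and 4.36 in siPTBP1 and at 0 in the double libraries.

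The genes listed at 0 in every double library were also short. Gm24061 (snoRNA, chrX:101141433-101141552) stood at 5.29, 5.13 and 5.78 TPM in siPTBP1, at 0 in every double library, and at 5.15, 25.49 and 10.94 in siGFP. Gm23765 (snRNA, chr11:85493759-85493905) stood at 12.53, 12.86 and 3.45 in siPTBP1, at 0 in the double libraries and at 3.05, 0 and 0 in siGFP. Both were at 0 in all 18 CY and NP libraries. Mir6387, also printed above, stood at 6.55, 6.23 and 14.17 in siPTBP1 and at 0 in the double and the siGFP libraries. Gm27430 (miRNA gene, chr1:30333291-30333397) stood at 3.35, 1.57 and 21.52 in siPTBP1 and at 0 in the other 2 treatments; 25 other annotated genes are near-identical to it, at 90% identity or more over at least 80% of its length, so its reads could be split among them. For Gm22051 there were 14 such genes.

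A pair of short genes were higher in the double libraries with a single siPTBP1 library above 0. Mir3109 stood at 0, 7.23 and 0 TPM in siPTBP1, at 9.41, 15.47 and 8.32 in the double libraries and at 0 in siGFP, a difference of 2.53 (limma adjusted p = 0.043). Gm22932 (miRNA gene, chr16:10273750-10273821, 1 near-identical gene) stood at 0, 7.86 and 0 in siPTBP1, at 18.46, 14.84 and 13.82 in the double libraries and at 0 in siGFP, a difference of 3.00 (limma adjusted p = 0.0173). In both, siPTBP1 replicate 2 was the library above 0.

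Most of the called genes lie inside other genes whose level did not differ. In GENCODE M21, 11 of the 16 called genes lie in an intron of a protein-coding gene on the same strand, 9 of them among the 11 short ones. The share of such genes among all 18877 tested, or among the 1248 short ones, was not counted. The location is therefore not given as a trait of the called genes. The 14 host genes had log2 differences between -0.20 and 0.06, and the smallest limma adjusted p of a host was 0.993. Gm24061 lies in Snx12, which stood at 30.72, 15.81 and 18.84 TPM in siPTBP1 and at 24.38, 15.58 and 19.08 in the double libraries. Mir6387 lies in Trib2, at 10.19, 6.69 and 8.61 against 7.65, 5.06 and 9.36. Mir3109 lies in Anxa2, at 56.82, 16.47 and 25.2 against 45.63, 19.18 and 22.54. Mir7647 lies in Diablo, at 63.57, 53.29 and 49.32 against 64.8, 51.89 and 48.75. Reads of a hairpin gene and of the intron around it cannot be told apart from gene values.

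**Figure D4:**
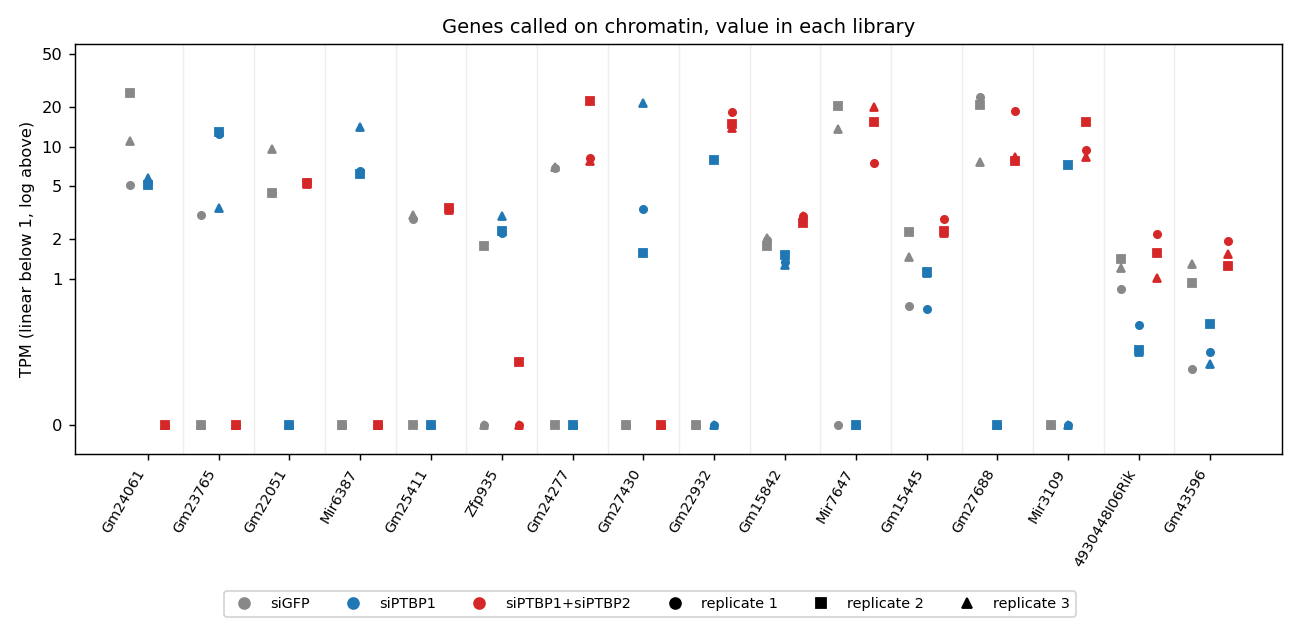
TPM of the 16 called genes in every chromatin library (scale linear below 1 and log above), by treatment (colour) and replicate (shape). For Gm24061, Gm23765, Mir6387 and Gm27430 the double libraries are all at 0, and for Gm22051, Gm25411, Gm24277, Mir7647 and Gm27688 the siPTBP1 libraries are.

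The 5 called genes with longer transcripts were Zfp935, Gm15842, Gm15445, 4930448I06Rik and Gm43596. Zfp935, a zinc finger gene (chr13:62453715-62558511), stood at 2.2, 2.29 and 3 TPM in siPTBP1, at 0, 0.43 and 0 in the double libraries and at 0, 1.76 and 0 in siGFP. It fell by 1.63 on the log2 scale (limma adjusted p = 0.00483). Zfp935 reached 1 TPM only in siPTBP1 libraries and so passed the filter through that group. Neither this p-value nor its calls under other settings are support. Exon sequence of Zfp934 lies within the span of Zfp935 on the same strand, but whether their exons overlap was not checked. Zfp934 stood at 110.99, 98.36 and 108.49 TPM in siPTBP1 and at 70.17, 89.97 and 88.97 in the double libraries (difference -0.36, limma adjusted p = 0.993). Gm49359 is nearly identical to Zfp935 and also has exon sequence within its span on the same strand. Gm49359 stood at 18.47, 27.29 and 22.92 TPM in siPTBP1 and at 21.56, 26.82 and 23.6 in the double libraries. Its difference was 0.08 (limma adjusted p = 0.993). Reads could be split between Zfp935 and Gm49359, which was not tested. Zfp935 was the only call among the 17602 genes of 200 nt or more tested by themselves, a restriction chosen after the data were seen. There too Zfp935 entered through the siPTBP1 group. It lost its call with a pseudocount of 0.1 (limma adjusted p = 0.172) and in the 6 compared libraries (0.538).

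The other 4 longer genes were higher in the double libraries and stayed under 3 TPM. Gm15842, a processed pseudogene in an intron of Pptc7 (chr5:122302422-122303039), stood at 1.34, 1.51 and 1.27 TPM in siPTBP1 and at 2.98, 2.64 and 2.99 in the double libraries, a rise of 0.71 (limma adjusted p = 0.0246). Gm15445, annotated as antisense (chr1:135152963-135153806), stood at 0.79, 1.12 and 1.1 against 2.85, 2.28 and 2.21, a rise of 0.78 (limma adjusted p = 0.0379). The lincRNA 4930448I06Rik (chr1:41167587-41181252) stood at 0.68, 0.51 and 0.5 against 2.18, 1.57 and 1.01, a rise of 0.70 (limma adjusted p = 0.043). The processed pseudogene Gm43596 (chr5:91788598-91789481) stood at 0.5, 0.69 and 0.42 against 1.94, 1.25 and 1.54, a rise of 0.74 (limma adjusted p = 0.0473). Both 4930448I06Rik and Gm43596 were under 1 TPM in every siPTBP1 library. They passed the filter through the double group, so their p-values are no support. All 4 longer genes lost their call without replicate 1, with limma adjusted p-values of 0.126, 0.188, 0.201 and 0.183 in the order described. With a pseudocount of 0.1 they were lost as well, at 0.9993, 0.938, 0.9993 and 0.823.

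The naming rule then took genes by unadjusted p until 24 were named, and the 20 added genes did not pass. Their limma adjusted p-values ran from 0.063 (Hbq1a) to 0.236 (L3mbtl1). Ndufc1, a subunit of respiratory complex I, stood at 77.62, 41.05 and 39.84 TPM in siPTBP1 and at 31.88, 22.85 and 21.74 in the double libraries, with 26.61, 40.38 and 39.97 in siGFP. The groups did not overlap, the difference was -0.97 and the adjusted p was 0.0668 (limma). Ndufb4, another subunit, stood at 17.69, 13.43 and 13.5 against 10.61, 7.32 and 7.95, with 14.32, 15.46 and 11.96 in siGFP (difference -0.73, limma adjusted p = 0.112). Ndufb3, also of complex I, stood at 51.32, 24.1 and 29.7 against 16.7, 15.69 and 19.05 (difference -0.92, limma adjusted p = 0.229). Smim26, a gene for a small membrane protein, stood at 19.89, 9.84 and 12.86 against 6.1, 8.46 and 6.31 (difference -0.89, limma adjusted p = 0.0764). In all 4 of these genes siPTBP1 replicate 1 was the highest of the 6 libraries.

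Other added genes had higher values in the double libraries, at low levels. L3mbtl1, which encodes a chromatin-compacting protein, stood at 3.77, 5.28 and 3.8 TPM in siPTBP1 and at 6.29, 10.28 and 5.83 in the double libraries (difference 0.66, limma adjusted p = 0.236). Hoxb9, a homeobox gene, stood at 0.66, 0.48 and 0.67 against 1.43, 1.26 and 1.18, close to the siGFP values of 1.6, 1.19 and 1.19 (difference 0.52, limma adjusted p = 0.139). Aanat, an enzyme of melatonin synthesis, stood at 0.14, 1.75 and 0.48 against 1.3, 3.31 and 2.93 and overlapped between the groups (difference 1.02, limma adjusted p = 0.0763). The remaining named genes that did not pass were Mir6951, Mir3067, Mir7687, Mir496a, Mir6963, Mir6988, Tmem229b, Pbld2, Col23a1, Zakit, Tmsb15b1, Stard6 and Hbq1a.

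No member of the 26 gene lists was called. For genes whose splicing is known to be held by PTB proteins, 22 of 24 were tested, 0 were called by limma (0 at an unadjusted p under 0.05), and the median difference was 0.07 against -0.01 over all genes. All 22 intervals lay within 2-fold. Gabbr1, a GABA-B receptor subunit, stood at 92.8, 132.73 and 113.63 TPM in siPTBP1 and at 153.49, 134.74 and 152.67 in the double libraries, with 129.04, 252.53 and 186.79 in siGFP. Its difference of 0.39 (95% interval -0.03 to 0.81) was the highest of the list (limma adjusted p = 0.993). Dlg4, which encodes the postsynaptic scaffold PSD-95, stood at 43.16, 60.34 and 40.2 against 55.23, 40.65 and 31.3 (difference -0.19), and Src, a tyrosine kinase with a neuronal exon, stood at 21.85, 25.42 and 15.42 against 38.15, 19.2 and 22.33 (difference 0.30). Both overlapped between the groups. Spliced and unspliced RNA are counted together in gene TPM, so no splicing was measured.

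The RNA-binding protein lists were as narrow. The PTB family and its corepressors had 12 tested members and a median of -0.07, and all 12 intervals lay within 2-fold. Raver1, a corepressor that binds Ptbp1, stood at 132.34, 93.65 and 124.3 TPM against 177.63, 100.35 and 136.58 (difference 0.22, limma adjusted p = 0.993). The 21 splicing regulators of neurons and muscle had a median of -0.03, the 13 SR proteins and Tra2 genes -0.065 and the 19 hnRNP proteins -0.09. Srsf12 was the only one of these at an unadjusted p under 0.05, at 3.82, 7.33 and 5.68 TPM against 3.26, 4.89 and 3.04 (difference -0.47, limma adjusted p = 0.73). The 15 genes known for nuclear detained introns had a median of 0.06, and Clk1, a kinase of SR proteins, stood at 117.18, 300.86 and 253.8 against 133.47, 330.77 and 246.52.

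Lists for cell identity gave no call either. The 21 pluripotency genes had a median of -0.06, and Dppa5a, the member with the lowest difference, stood at 986.76, 298.09 and 354.4 TPM in siPTBP1 and at 557.58, 226.67 and 303.46 in the double libraries (difference -0.48, limma adjusted p = 0.993). The 22 synapse genes had a median of 0.10, the 15 neuronal cytoskeleton genes 0.004, the 9 neural progenitor genes 0.09 and the 11 epiblast genes 0.04. For cell types that could be mixed in, endoderm markers summed to 175 to 241 TPM in siPTBP1 and 160 to 305 in the double libraries, mesoderm markers to 21.03 to 50.3 and 18.3 to 54.8, and fibroblast markers to 53.5 to 81.1 and 62.1 to 136. One member of each of the endoderm and fibroblast lists, Ttr and Lum, was listed at 0 in all 6 libraries, but others were present. Col1a1 stood at 36.1, 24.8 and 19.27 TPM in siPTBP1 and at 77.66, 24.15 and 21.42 in the double libraries, and Col4a1 at 51.39, 32.28 and 34.51 against 93.71, 33.54 and 30.2. None of the 9, 9 and 6 tested members of these lists was called by limma, and none had an unadjusted p under 0.05.

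**Figure D5:**
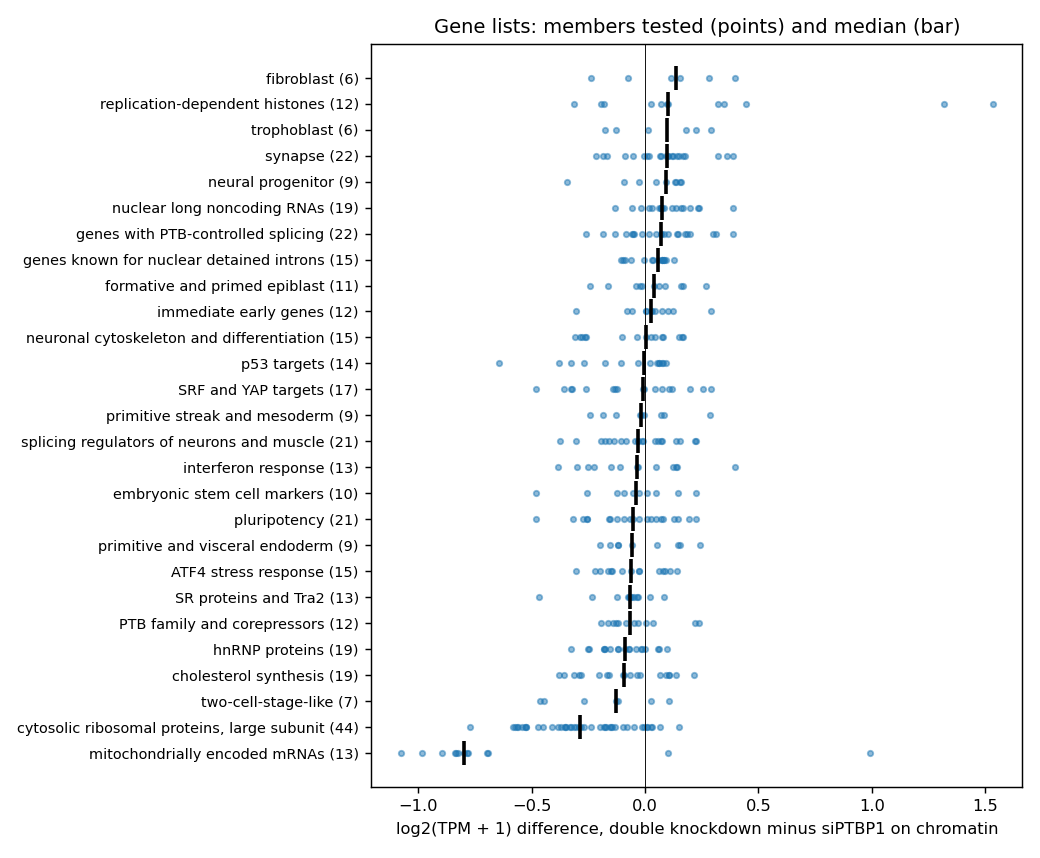
Log2(TPM + 1) difference of double minus siPTBP1 for each tested member (points) and the median (bar) of the 26 gene lists and the stem cell markers, with the number tested in brackets. The medians lie between -0.13 and 0.14 except for ribosomal proteins at -0.29 and mitochondrially encoded mRNAs at -0.80.

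The lowest list medians were those of ribosomal protein genes and mitochondrially encoded mRNAs, and siPTBP1 replicate 1 was high in both. The 44 large-subunit ribosomal protein genes had a median of -0.29, with 38 below 0, 10 at an unadjusted p under 0.05 and 0 called by limma. Their summed level was 24050 to 40830 TPM in siPTBP1, 22800 to 29790 in the double libraries and 28240 to 31880 in siGFP. By pair the medians were -0.68, -0.105 and -0.108, and without siPTBP1 replicate 1 the median was -0.03 with 28 below 0. Rpl39 stood at 522.13, 212.93 and 270.6 TPM in siPTBP1 and at 164.07, 172.96 and 211.94 in the double libraries (difference -0.77, limma adjusted p = 0.394). Many ribosomal protein genes have pseudogenes of near-identical sequence, so these values are uncertain.

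The 13 mitochondrially encoded mRNAs had a median of -0.80, with 2 at an unadjusted p under 0.05, 0 called by limma and no interval within 2-fold. They summed to 10040 to 15880 TPM in siPTBP1, 4973 to 13280 in the double libraries and 5601 to 16680 in siGFP. By pair the medians were -1.67, 0.09 and -0.92. Without siPTBP1 replicate 1 the median was -0.33, with 11 of 13 below 0, as many as with it. mt-Co1, a subunit of cytochrome oxidase, stood at 3623.03, 3454.42 and 3014.23 against 1132.29, 3681.54 and 1597.12 (difference -0.83, limma adjusted p = 0.737). In siGFP it stood at 1209.64, 4682.8 and 1844.5. For replicates 1 and 3 the siPTBP1 library was above both other treatments, and for replicate 2 it was below them.

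Among the other lists, 3 of 12 replication-dependent histone genes had an unadjusted p under 0.05 and none was called by limma. Hist1h2ab stood at 1.74, 0.64 and 0.53 TPM in siPTBP1 and at 3.12, 6.55 and 2.42 in the double libraries (difference 1.32, limma adjusted p = 0.598). Hist2h2aa1 was listed at 0 in all siPTBP1 and siGFP libraries and stood at 1.8, 1.17 and 3 in the double libraries (limma adjusted p = 0.569). Replication-dependent histone mRNAs mostly lack a poly(A) tail, so polyadenylated RNA holds few of them. The 19 nuclear long noncoding RNAs had a median of 0.07, and Miat, the highest of them, stood at 8.54, 13.46 and 11.61 against 11.74, 16.28 and 16.63 (difference 0.39, limma adjusted p = 0.993). The 14 p53 targets, 13 interferon response genes, 15 ATF4 stress response genes and 19 cholesterol synthesis genes had medians of -0.004, -0.04, -0.06 and -0.09. The 6 trophoblast, 7 two-cell-stage-like, 17 SRF and YAP target and 12 immediate early genes had medians of 0.10, -0.13, -0.01 and 0.03.

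The added siRNA was also compared between fractions. The difference of its effect between chromatin and CY was called by limma for 3 genes (0.0159%) and between chromatin and NP for 4 (0.0212%), all of them short genes at 0 in every library of 1 chromatin group. They passed the filter through the other chromatin group, so these calls are no support. In NP itself 1 gene was called, Gm22297 (0.0053%). These counts cover genes filtered on their chromatin level, so genes found only in CY or NP were not tested.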

How the data were processed

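The values were the authors' deposited TPM per gene in 27 libraries of polyadenylated RNA, made with STAR and kallisto on mm10 per the submitters' processing notes, with no versions given. Which annotation release the authors used is not given in the sources used. Gene types, positions and transcript lengths are from GENCODE M21 (GRCm38), which held 53274 of 53379 IDs. Libraries are stranded, per the labels' protocols. The table sums to the same total in each library and keeps no depth, so the reads behind a value are unknown and no counting interval is given. Of the genes, 15100 were at 0 in all 27 libraries, and a 0 can be a failed estimate. Spliced and unspliced RNA are counted together in gene TPM. Reads of overlapping, antisense or near-identical genes cannot be assigned with certainty.

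Genes with at least 1 TPM in at least 3 of the 6 libraries compared were fitted on log2(TPM + 1), which understates differences of low genes, with limma 3.58.1 in R 4.3.3 (trend and robust settings, two-sided). The fit had a mean for each of 9 groups and an additive block for the replicate number (16 residual degrees of freedom). Benjamini-Hochberg adjusted p-values are over all 18877 genes and a gene is called under 0.05. Across 108 same-numbered pairs of libraries the correlation of deviations from group means was at least 0.151 (median 0.404), against a median of -0.236 for libraries sharing neither number nor group, and 27 of 27 libraries correlated best with one of their own number. On that basis, which comes from the data, libraries were treated as paired by number. The script was tested on simulated data: it recovered most of the changed genes, and made extra false calls where values were held at 0, as many short genes are. Changes were planted only in genes above a minimum mean level, with noise drawn from the spread in these data. The recovery therefore says nothing about genes near 0. Near-identical genes were sought with BLAST 2.17.0.

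The naming rule took called genes averaging 1 TPM or more in a group, with the same direction in 3 pairs and no predicted, clone or Riken symbol, added the next by unadjusted p until 24 were named, and took up to 4 members of each list. Of these list members only some are described. The members, lists and tests were chosen with earlier results of these data known. Alternatives were the block, the libraries fitted, the pseudocount, the scaling, the filter and leaving out libraries.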

Additional observations from a re-analysis of the deposited data

Results flagged for a closer look

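Some short genes were called between fractions by a limma contrast of the 2 effects of the added Ptbp2 siRNA, each adjusted over 18877 genes. For chromatin against cytoplasm the adjusted p was 0.00927 for Gm24061, 0.00927 for Gm22051 and 0.0452 for Gm23765. Gm24061 and Gm23765 were at 0 in all 18 libraries of the other fractions. Gm22051 was at 0 in 17 of those 18, with 3.15 TPM in siPTBP1 cytoplasm replicate 2.

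For chromatin against nucleoplasm the adjusted p was 0.00966 for Gm24061, 0.0108 for Mir6387, 0.0114 for Mir7647 and 0.0339 for Gm23765. Mir6387 was above 0 outside chromatin in 1 library, at 4.32 TPM in double nucleoplasm replicate 1. Mir7647 stood at 4.98, 7.41 and 4.36 TPM in siPTBP1 nucleoplasm and at 0 in the double nucleoplasm libraries, the opposite order to chromatin. Gm24061 and Gm23765 were at 0 in the other fractions, so their differences repeat their chromatin values. Each of these genes was at 0 in all libraries of 1 chromatin group and passed the filter through the other group. Neither these calls nor their p-values are therefore support for a difference between fractions.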

How the results depend on the processing

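Against 16 genes called on chromatin, the fit with no replicate block called 22, which held all 16, and the fit with a replicate block within each fraction called 38, of which 15 were shared. The 9 chromatin libraries alone gave 0 calls (limma, 925 genes at an unadjusted p under 0.05) and the 6 compared libraries 5, with 2 shared. Quantile normalization gave 32 (19 higher, 13 lower), median-of-ratios scaling 24 (15 higher, 9 lower), and a pseudocount of 0.1 gave 11 (6 higher, 5 lower). Without a filter 34435 genes were tested and 141 called; with 1 TPM in all 6 libraries 15594 were tested and 0 called (514 unadjusted), a filter that removes 15 of the 16 called genes beforehand. With transcripts of at least 200 nt, added after the data were seen, 1 was called, Zfp935, which passed the filter through the siPTBP1 group only. Leaving out 1 replicate number or library gave 15 to 63 calls on chromatin; without replicate 1 the count was 36, with 4 shared, without replicate 2 it was 53, with 8 shared, and without replicate 3 15, with 3 shared. Without siPTBP1 replicates 1, 2 and 3 it was 28, 63 and 29, and without double replicates 1, 2 and 3 it was 17, 44 and 20.

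For the difference of effect against cytoplasm (3 calls), no replicate block gave 5, a pseudocount of 0.1 gave 6, no filter 17, 1 TPM in all 6 libraries, which removes the called genes, 0 (limma, 254 unadjusted), transcripts of at least 200 nt 0 (364 unadjusted), and leaving out replicates 8 to 19. Against nucleoplasm (4 calls), a pseudocount of 0.1 gave 7, no filter 17, the same filter 0 (220 unadjusted), at least 200 nt 0 (308 unadjusted) and leaving out replicates 14 to 26. Leaving out libraries turned the sign of few single values: Ptbp3 ran from -0.359 to 0.193 (positive without replicate 1, 0.088, and without siPTBP1 replicate 1), Ptbp2 from -0.098 to 0.009, Ina from -0.424 to 0.005, Meg3 from -0.018 to 0.368 and Col1a1 from -0.072 to 0.646. The causes were not tested. Ptbp1 and Ptbp2 were not called on chromatin under any setting in which they were fitted. Since the read depth is unknown, differences in genes near 0 could not be resolved from sampling.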
